A study of Mus musculus with 6 samples.

Results

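The transcripts described here are those of 38 macrophage genes, measured in the sensory epithelia of the cochlea, the hearing organ, and of the vestibule, the balance organ, of newborn (P0) mice. The genes were taken as a list of mouse symbols and matched to the 39179 Ensembl genes that were counted. All 38 were found, and all 38 passed a filter of at least 1 CPM (a count scaled to the size of its library) in 3 or more libraries, which kept 14723 genes. Of the 38, 35 were over 1 CPM in all 6 libraries, and none passed through the vestibule alone. The animals were wild-type C57Bl/6J mice of both sexes, with no treatment or transgene named in the labels. RNA of pooled ears was sequenced in 3 cochlear and 3 vestibular libraries, and the labels do not say whether the 3 libraries of a tissue came from separate pools of RNA. The p-values given here therefore measure the spread between libraries, which may be technical.

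Macrophages are the resident phagocytes of most tissues, the inner ear included, where they lie along vessels, nerves and the tissue below the sensory epithelium. They clear dying cells and take up debris. Their growth and survival depend on the receptor of colony-stimulating factor 1 (Csf1r), and their program of transcription on PU.1, the product of Spi1. The list holds receptors that mark the lineage, transcription factors, the subunits of complement C1q, receptors that signal through ITAM adaptors, general leukocyte genes, lysosomal and secreted proteins, and scavenger receptors.

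Counts on genes ran from 24464483 to 33664793 per library, and 1 CPM stood for 23.9 to 36.6 counts after TMM scaling (trimmed mean of M values, which evens out differences in composition). Markers of the labelled tissue were present: all 10 hair cell genes and all 11 supporting cell genes of the marker lists passed the filter. The hair cell genes summed to 698 to 869 CPM in the cochlea and 1060 to 1250 CPM in the vestibule, with 4 of 10 higher in the vestibule and 1 in the cochlea by the test given below. The supporting cell genes summed to 2350 to 2920 CPM and 1480 to 1520 CPM, with 7 of 11 higher in the cochlea, so these markers and the macrophage genes moved in opposite directions, and the part of this difference in the results was not tested. Libraries of one tissue differed by more than counting noise, with a chi-square per degree of freedom of 26.6 to 92.7, and of at least 147 between the tissues. One library stood apart: skeletal muscle genes summed to 314 CPM in cochlea 3, against 5.52 CPM in the lowest cochlear library and 28.3 CPM in the highest vestibular one. Without cochlea 3 the median log2 fold change of the macrophage genes was 1.83, against 1.87 with it.

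Macrophage transcripts were more abundant in the vestibule. The 38 genes together took 0.0376% to 0.0428% of the gene counts of a cochlear library, or 10476 to 11563 counts. In a vestibular library they took 0.166% to 0.174%, or 42581 to 55864 counts. The summed level was 416 ± 18.8 CPM in the cochlea and 1620 ± 119 CPM in the vestibule (mean ± SD, n = 3 each), a ratio of 3.89. In bulk tissue, fewer macrophages and less RNA per macrophage cannot be told apart. The lowest vestibular sum, 1530 CPM, was far above the highest cochlear one, 438 CPM.

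By the quasi-likelihood test of edgeR, adjusted after Benjamini and Hochberg over all genes tested at a false discovery rate of 0.05, 34 of the 38 genes were higher in the vestibule and 0 in the cochlea (also 0 at an unadjusted p of 0.05, by DESeq2 and by limma-voom). Of all genes tested, 15.8% were higher in the vestibule and 11.6% in the cochlea. The 4 genes not called were Mpeg1, Tmem119, Trem2 and Cd14. The same 34 genes had all 3 vestibular libraries above all 3 cochlear ones, a pattern found in 22.3% of all genes tested, and the libraries of the other 4 genes overlapped. Expressed as vestibule minus cochlea, the log2 fold changes of the 38 genes had a median of 1.87 (3.66-fold) and ran from -0.05 to 4.50, while the median over all genes tested was 0. The gene with the smallest change among those called still stood at the 87.3 percentile of all genes tested.

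**Figure D1:**
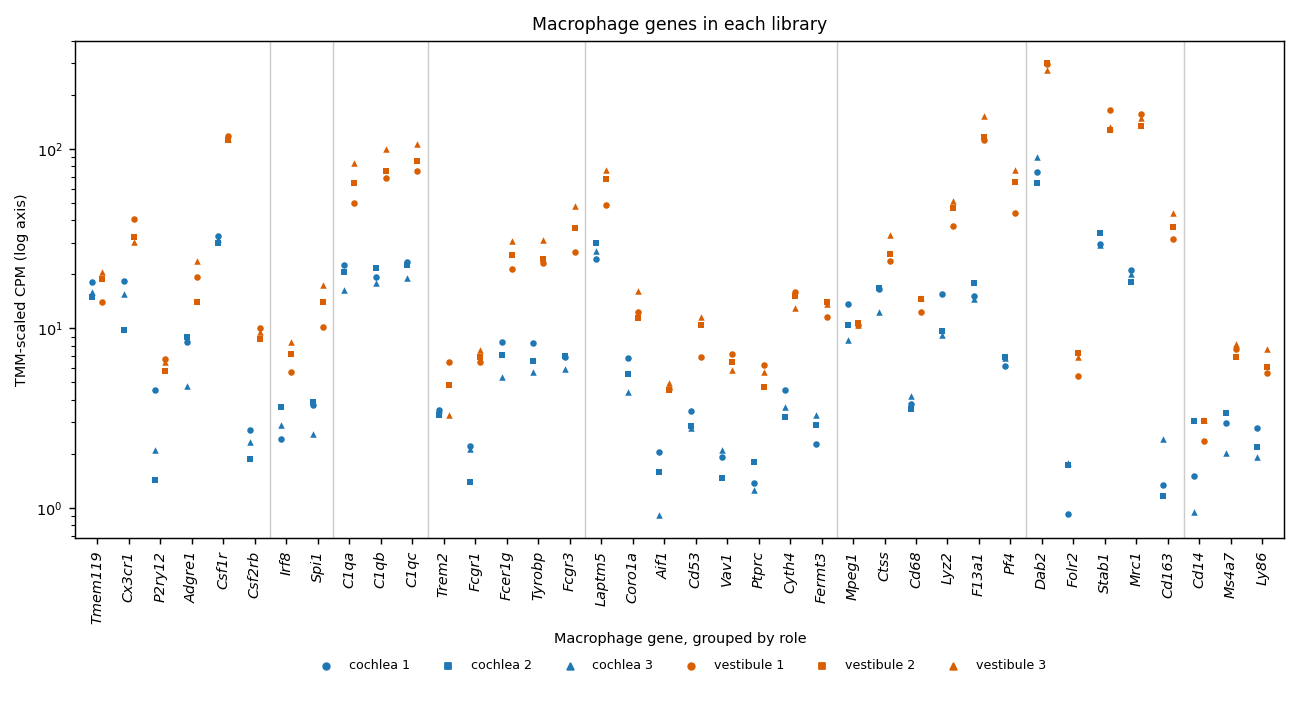
TMM-scaled CPM (log axis) of the 38 macrophage genes in each of the 6 libraries, with genes grouped by role between the grey lines and ordered by fold change within a role. Blue points (cochlea) lie below orange points (vestibule) for 34 genes, and the points of Mpeg1, Tmem119, Trem2 and Cd14 overlap.

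Within a tissue the libraries were not equal. Vestibule 3 was the highest of its tissue for 24 of the 38 genes and vestibule 1 the lowest for 22, and their summed levels were 1750 and 1530 CPM. In the cochlea, library 1 was the highest for 19 genes and library 3 the lowest for 20, with sums of 438 and 403 CPM. These differences within a tissue were small beside the difference between the tissues.

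The receptors that mark the lineage were led by Csf1r, the receptor for CSF1 and interleukin 34. Csf1r stood at 32.6, 30.1 and 31.4 CPM in the cochlear libraries and at 118, 112 and 114 CPM in the vestibular ones, a log2 fold change of 1.87 ± 0.11 (SE; adjusted p = 1.14e-05). Its change equalled the median of the list, and its 3 libraries lay close together in both tissues. Csf2rb, the common beta chain of the GM-CSF receptor family, changed by a log2 of 2.03 ± 0.21 (adjusted p = 0.000182). Adgre1, the F4/80 antigen, changed by 1.36 ± 0.28 (adjusted p = 0.00682). Both had groups that did not overlap, as did Cx3cr1, the fractalkine receptor, which had 18.4, 9.84 and 15.6 CPM in the cochlea and 40.5, 32.5 and 30.4 CPM in the vestibule (1.24 ± 0.23, adjusted p = 0.00444).

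P2ry12, an ADP receptor known from microglia, had the least certain of the called changes. It stood at 4.52, 1.43 and 2.09 CPM in the cochlea and at 6.73, 5.81 and 6.47 CPM in the vestibule, a log2 fold change of 1.25 ± 0.38 (adjusted p = 0.0398). The cochlear libraries were spread over a wide range for this gene and the vestibular ones were not. The call was lost without any one library other than cochlea 1: the log2 fold change was 0.94 without cochlea 2, 1.09 without cochlea 3, 1.22 without vestibule 1, 1.33 without vestibule 2 and 1.25 without vestibule 3. Without cochlea 1, the highest of the cochlear libraries, the call stayed and the log2 fold change was 1.84, near the median of the list. Tmem119, a membrane protein used as a marker of microglia and also made by bone-forming cells, was the one lineage marker not called, with 18.1, 15 and 16.0 CPM in the cochlea and 14.1, 18.8 and 20.5 CPM in the vestibule. Its vestibular libraries lay on both sides of the cochlear ones (0.12 ± 0.18, adjusted p = 0.652).

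Both transcription factors were higher in the vestibule. Spi1, which encodes PU.1, had 3.72, 3.88 and 2.58 CPM in the cochlear libraries against 10.2, 14.1 and 17.4 CPM in the vestibular ones, a log2 fold change of 2.03 ± 0.26 (adjusted p = 0.000572). Irf8, a partner of PU.1 in the myeloid lineage, had 2.42, 3.66 and 2.89 CPM against 5.69, 7.17 and 8.45 CPM (1.24 ± 0.24, adjusted p = 0.0055). Neither gene overlapped between the tissues.

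The 3 subunits of C1q, the recognition molecule of the classical complement pathway, moved by nearly the same amount. Their genes C1qa, C1qb and C1qc lie side by side on the minus strand of chromosome 4 within 18675 bases (chr4:136880129-136898803, GRCm38). C1qa had 22.5, 20.7 and 16.3 CPM in the cochlea and 49.7, 64.6 and 83.9 CPM in the vestibule. C1qb went from 19.4, 21.8 and 17.9 CPM to 69.1, 75.0 and 99.6 CPM. The log2 fold changes were 1.74 ± 0.21 for C1qa, 2.04 ± 0.17 for C1qb and 2.05 ± 0.17 for C1qc, with adjusted p-values of 0.000448, 5.79e-05 and 4.92e-05. For all 3 genes, vestibule 1 was the lowest and vestibule 3 the highest of the vestibular libraries.

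Genes of the ITAM module were higher in the vestibule except Trem2. The adaptors Tyrobp (DAP12) and Fcer1g (the Fc receptor gamma chain), which carry the signal of receptors without a signalling tail of their own, changed by a log2 of 1.94 ± 0.19 and 1.90 ± 0.21 (adjusted p = 0.000153 and 0.000284). Fcgr1, the high-affinity receptor for IgG, changed by 1.87 ± 0.24 (adjusted p = 0.000552). Fcgr3, a low-affinity IgG receptor, had 6.94, 7.01 and 5.93 CPM in the cochlea and 26.6, 36.4 and 48.2 CPM in the vestibule (2.48 ± 0.23, adjusted p = 9.64e-05). Trem2, a receptor for lipids and apoptotic cells that pairs with Tyrobp, did not follow its adaptor. It had 3.51, 3.28 and 3.49 CPM in the cochlea and 6.51, 4.84 and 3.29 CPM in the vestibule, where vestibule 3 lay within the range of the cochlear libraries (0.52 ± 0.27, adjusted p = 0.193). For Trem2 vestibule 1 was the highest and vestibule 3 the lowest of the vestibular libraries, while for Fcgr3, Tyrobp and Fcer1g vestibule 1 was the lowest and vestibule 3 the highest.

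All 8 genes of leukocyte signalling and the cytoskeleton were higher in the vestibule. Their median log2 fold change was 1.75, from 1.24 for Laptm5, a lysosomal membrane protein of blood cells, to 2.21 for Fermt3 (kindlin-3), which activates integrins. Ptprc, the leukocyte common antigen CD45, had 1.38, 1.81 and 1.26 CPM in the cochlear libraries and 6.26, 4.70 and 5.75 CPM in the vestibular ones, a log2 fold change of 1.91 ± 0.24 (adjusted p = 0.000536). Vav1, a guanine nucleotide exchange factor of blood cells, changed by 1.83 ± 0.23, and Cyth4, which acts on Arf GTPases, by 1.96 ± 0.20 (adjusted p = 0.000461 and 0.000161). Cd53, a tetraspanin, and Aif1 (IBA1), an actin-binding protein, changed by 1.67 ± 0.24 and 1.64 ± 0.30 (adjusted p = 0.00115 and 0.00372). Coro1a, which binds actin at the cell cortex, changed by 1.25 ± 0.22 (adjusted p = 0.0035).

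Lysosomal and secreted proteins were the most divided group, with log2 fold changes from -0.05 to 3.21. At the lower end, Mpeg1 (perforin-2), a pore-forming protein of phagocytes, had 13.6, 10.4 and 8.61 CPM in the cochlea and 10.4, 10.7 and 10.4 CPM in the vestibule. The vestibular values lay inside the cochlear range, and the estimate of -0.05 ± 0.20 (adjusted p = 0.874) turned to 0.13 without cochlea 1 and to 0.07 without TMM scaling. Ctss (cathepsin S), a cysteine protease of the endosome, had 16.6, 16.7 and 12.3 CPM against 23.7, 25.9 and 33.1 CPM (0.86 ± 0.19, adjusted p = 0.00906). Cd68, a lysosomal membrane glycoprotein, and Lyz2, the lysozyme of macrophages, changed by 1.85 ± 0.18 and 1.98 ± 0.23 (adjusted p = 0.00013 and 0.00034), close to the median of the list. The other end was held by F13a1, the A chain of coagulation factor XIII, and Pf4 (CXCL4), a chemokine also stored in platelets. F13a1 had 15.1, 17.8 and 14.5 CPM in the cochlea against 112, 117 and 152 CPM in the vestibule (3.00 ± 0.17, adjusted p = 7.91e-06). Pf4 had 6.19, 6.97 and 6.84 CPM against 43.8, 65.6 and 76.0 CPM (3.21 ± 0.22, adjusted p = 1.91e-05). For both genes the cochlear libraries were tight and far below the lowest vestibular one.

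Scavenger and endocytic receptors had the highest median of the 8 roles, 2.19, and all 5 were higher in the vestibule. Dab2, an endocytic adaptor, was the most counted gene of the list at 76.4 ± 12.9 CPM in the cochlea and 292 ± 13.3 CPM in the vestibule (mean ± SD, n = 3), a log2 fold change of 1.94 ± 0.15 (adjusted p = 3.96e-05). Stab1 (stabilin-1), which clears modified lipoproteins, had 29.5, 34.0 and 29.3 CPM against 164, 128 and 132 CPM (2.19 ± 0.15, adjusted p = 1.83e-05). Folr2, a folate receptor, changed by 2.13 ± 0.29 (adjusted p = 0.000766), but 975 of its 1546 exonic bases overlap Gm10602 on the opposite strand, as 873 of the 5774 of Csf1r overlap Hmgxb3, and the strand setting of the counting is not given in the sources used here. Mrc1, the mannose receptor CD206, had 21.2, 18.1 and 20.2 CPM in the cochlea and 156, 134 and 149 CPM in the vestibule (2.88 ± 0.13, adjusted p = 4.98e-06). Cd163, the receptor that takes up haptoglobin-bound haemoglobin, had the largest change of the 38 genes. It stood at 1.34, 1.17 and 2.41 CPM in the cochlea, from 32, 31 and 69 counts, and at 31.3, 36.9 and 44.1 CPM in the vestibule, from 1146, 998 and 1113 counts (4.50 ± 0.29, adjusted p = 1.38e-05, 22.6-fold). In the cochlea Cd163 was near the filter of 1 CPM, and every vestibular library was far above it.

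The remaining 3 genes were low in both tissues. Ly86 (MD-1), a partner of a Toll-like receptor homologue, changed by a log2 of 1.49 ± 0.24 and Ms4a7, a tetraspan membrane protein of macrophages, by 1.44 ± 0.24 (adjusted p = 0.00184 and 0.00219). Cd14, the co-receptor for lipopolysaccharide, had 1.51, 3.05 and 0.942 CPM in the cochlea and 2.35, 3.03 and 3.09 CPM in the vestibule (0.62 ± 0.40, adjusted p = 0.288). Cochlea 2 was as high as the vestibular libraries for Cd14, and without cochlea 2 the log2 fold change was 1.21 (adjusted p = 0.0389 by the same edgeR test).

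To find which genes left the common shift, the median change of the 38 genes (1.87) was put into the fit as an offset, so that a gene that moved with the set has a difference of 0. The shift comes from the same libraries and genes, and its own error is not part of the test. Of the 38 genes, 5 lay above the common shift and 9 below it, and 24 were not called against it. Over all genes tested, 2.23% lay above this shift and 91.2% below it, so that a gene that did not differ between the tissues counts as below, and the adjusted p-values of the test are close to the unadjusted ones. At an unadjusted p of 0.05 the counts were again 5 and 9.

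**Figure D2:**
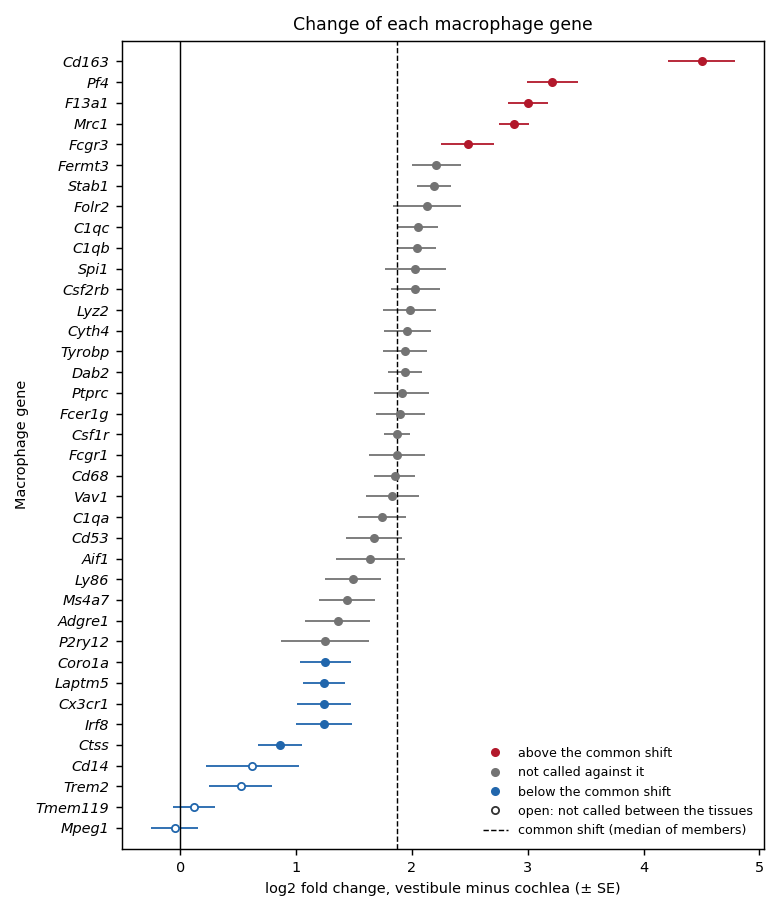
Log2 fold change of each macrophage gene, vestibule minus cochlea, with its SE, in order of size; the dashed line is the common shift of 1.87. Red points (5 genes, from Fcgr3 to Cd163) were called above the shift, blue points (9 genes) below it, and open points were not called between the tissues.

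Above the shift lay Cd163, Pf4, F13a1, Mrc1 and Fcgr3. Relative to the common shift they were a further 6.20-fold, 2.53-fold, 2.19-fold, 2.02-fold and 1.53-fold higher in the vestibule. The adjusted p-values of these differences were 1.3e-05, 0.000185, 0.000105, 4.5e-05 and 0.0241 (edgeR's quasi-likelihood test). Of these, the first 4 were called above the shift in each of the 14 other settings tried. Fcgr3 was not: its difference of 0.61 was 0.62 without cochlea 1, 0.58 without cochlea 3, 0.62 without vestibule 2 and 0.44 without vestibule 3, each short of the threshold. Stab1 and Folr2, also scavenger and endocytic receptors, were not called against the shift, with differences of 0.32 and 0.26 on the log2 scale (adjusted p = 0.0571 and 0.392). Stab1 passed without cochlea 2 (0.45) and without vestibule 3 (0.43).

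Below the shift lay Mpeg1, Tmem119, Trem2, Cd14, Ctss, Irf8, Cx3cr1, Laptm5 and Coro1a. The first 4 are the genes not called between the tissues, and the other 5 were higher in the vestibule by less than the rest. Mpeg1 stood at 0.264 and Tmem119 at 0.298 of the level the common shift would give, Trem2 at 0.392, Cd14 at 0.422 and Ctss at 0.496 (adjusted p = 1.4e-05, 1.3e-05, 0.00104, 0.0147 and 0.000606 by the edgeR test). Mpeg1, Tmem119, Trem2 and Ctss were called below the shift in each of up to 14 other settings that tested them. Irf8, Cx3cr1, Laptm5 and Coro1a stood between 0.644 and 0.650 of that level, and these calls were less firm.

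The call of Irf8 was lost without cochlea 2 (-0.40), cochlea 3 (-0.61), vestibule 1 (-0.52) and vestibule 2 (-0.64), against a log2 difference of -0.63 with all libraries. That of Cx3cr1, also -0.63, was lost without cochlea 1 (-0.46), cochlea 3 (-0.54), vestibule 2 (-0.60) and vestibule 3 (-0.49). That of Coro1a, -0.62, was lost without cochlea 1 (-0.48), cochlea 2 (-0.57), vestibule 1 (-0.60) and vestibule 2 (-0.53). Each of these 3 calls was thus lost without any one of 4 libraries. Laptm5 (-0.50) and Cd14 (-0.60) lost theirs without cochlea 2 only. Adgre1 and Ms4a7 were called below the shift without cochlea 3 (-0.71 and -0.58) and P2ry12 without cochlea 2 (-0.86), and not with all libraries. The sets above and below the shift thus have firm ends, Cd163, Pf4, F13a1 and Mrc1 on one side and Mpeg1, Tmem119, Trem2 and Ctss on the other, and borders that 1 library can move.

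A second view of the same genes divides each by the summed level of 8 general leukocyte genes of the list (Ptprc, Cd53, Laptm5, Coro1a, Fermt3, Vav1, Cyth4 and Spi1), library by library. That sum was 48.6, 51.8 and 47.2 CPM in the cochlea and 119, 144 and 160 CPM in the vestibule, 2.86-fold apart. Laptm5, itself below the common shift, gave 27.3 CPM of it in the cochlea and 64.2 CPM in the vestibule, so the sum rose by less than the common shift of 3.66-fold and a gene that followed that shift tends to have a higher ratio in the vestibule. Of the 38 ratios, 17 were higher in all vestibular than in all cochlear libraries, 5 were lower and 16 overlapped. Over all genes tested, 3.41% had a higher ratio in all vestibular libraries and 84.7% a lower one. The 5 lower ones were Mpeg1, Tmem119, Trem2, Ctss and Laptm5. The 8 genes of the sum are among the 38, so their ratios, that of Laptm5 included, set a part against its own whole. The Mpeg1 ratio was 0.280, 0.201 and 0.182 for the cochlear libraries against 0.0869, 0.0746 and 0.0648 for the vestibular ones. For Cd163 the ratio was 0.0275, 0.0225 and 0.0510 against 0.263, 0.257 and 0.276. The ratio of Mrc1 was 0.437, 0.349 and 0.428 against 1.31, 0.933 and 0.930, so that Mrc1 alone was counted about as much as the 8 leukocyte genes together in the vestibule.

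**Figure D3:**
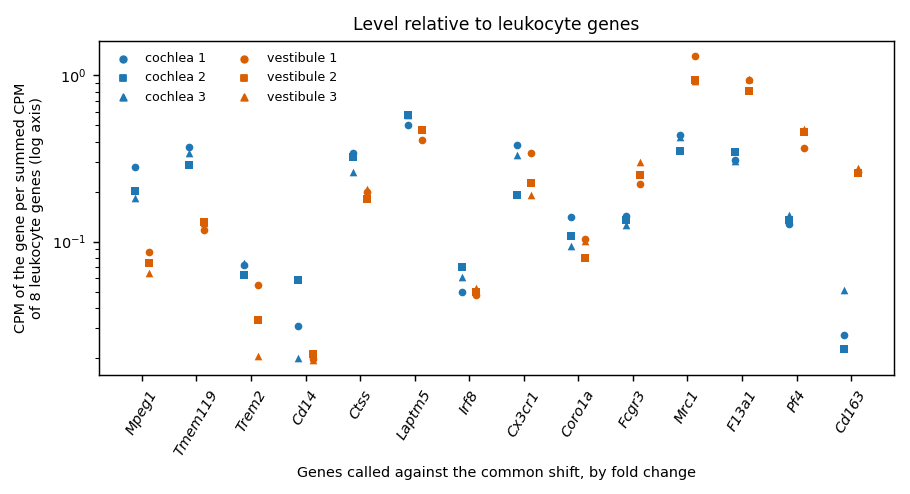
CPM of each of the 14 genes called against the common shift, divided by the summed CPM of 8 leukocyte genes in the same library (log axis), for 3 cochlear (blue) and 3 vestibular (orange) libraries. From Fcgr3 to Cd163 the orange points lie above the blue ones, and for Mpeg1, Tmem119, Trem2, Ctss and Laptm5 (itself one of the 8) they lie below.

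Levels between genes can be set side by side only per length, for which the deposited log2 RPKM (read counts divided by library size and by the length of the gene) were used after returning them to the linear scale. In the cochlea the highest RPKM of the list were those of C1qa (18.3 ± 2.91) and C1qb (17.4 ± 1.15), which did not differ beyond their spread, followed by Tyrobp (11.7 ± 2.31), Pf4 (10.9 ± 0.565), C1qc (10.8 ± 1.11) and Ctss (10.7 ± 1.61), which did not either (mean ± SD, n = 3). In the vestibule Pf4 stood first at 109 ± 24.8 RPKM, above C1qb at 77.6 ± 11.6 and C1qa at 65.9 ± 14. Ctss was at 21.1 ± 2.72 RPKM there, below F13a1 (33.5 ± 4.19) and Mrc1 (25.7 ± 2.52), both of which were below Ctss in the cochlea at 3.86 ± 0.291 and 3.22 ± 0.362 RPKM. Tmem119 and Csf1r stood together in the cochlea, at 6.81 ± 0.847 and 6.18 ± 0.445 RPKM, and apart in the vestibule, at 8.0 ± 1.19 and 24.5 ± 1.62 RPKM. The order of the genes thus differed between the tissues as well as their levels.

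**Figure D4:**
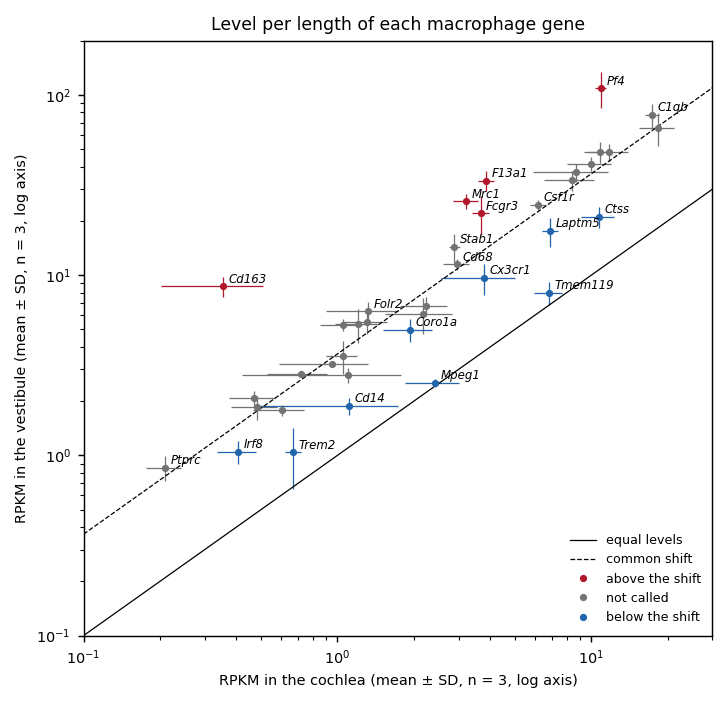
RPKM of each macrophage gene in the cochlea (x) and the vestibule (y), mean ± SD of 3 libraries on log axes, with lines for equal levels and for the common shift of 3.66-fold. Pf4, F13a1, Mrc1, Fcgr3 and Cd163 (red) lie above the dashed line, and Mpeg1 and Tmem119 (blue) lie next to the line of equal levels. The dashed line comes from TMM-scaled values (log2 of 1.87), whereas the RPKM are scaled by library size, for which the median log2 fold change was 1.99.

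As shares of the summed macrophage level, Mpeg1 had 2.60% in the cochlear and 0.650% in the vestibular libraries (means), and Tmem119 3.92% and 1.10%. The CPM of these genes did not pass the test between the tissues while the sum was higher in the vestibule. Ctss had 3.64% and 1.69%, and Csf1r 7.53% and 7.11%. Shares were larger in the vestibule for Mrc1 (4.76% and 9.07%), F13a1 (3.8% and 7.79%), Pf4 (1.61% and 3.79%) and Cd163 (0.396% and 2.30%).

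The promoter windows of genes that moved together or apart are shown because PU.1, whose own transcript was higher in the vestibule, acts on many macrophage promoters. They are the 250 bases before the start of the RefSeq transcript (GRCm38.p6), written 5′ to 3′ on the strand of the gene, and capitals mark the PU.1 core GAGGAA, or TTCCTC where it lies on the opposite strand. The 4 genes firmly above the common shift come first, with Cd163 at chr6:124304401-124304650 (plus strand), Pf4 at chr5:90772185-90772434 (plus), F13a1 at chr13:37050245-37050494 (minus) and Mrc1 at chr2:14229164-14229413 (plus). Mpeg1 at chr19:12460520-12460769 (plus) and Ctss at chr3:95526536-95526785 (plus) stand for the genes below it.
Cd163: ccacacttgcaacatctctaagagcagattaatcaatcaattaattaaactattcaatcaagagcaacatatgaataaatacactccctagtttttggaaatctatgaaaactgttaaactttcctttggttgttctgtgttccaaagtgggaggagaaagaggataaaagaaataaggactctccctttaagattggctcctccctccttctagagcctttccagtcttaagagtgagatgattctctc
Pf4: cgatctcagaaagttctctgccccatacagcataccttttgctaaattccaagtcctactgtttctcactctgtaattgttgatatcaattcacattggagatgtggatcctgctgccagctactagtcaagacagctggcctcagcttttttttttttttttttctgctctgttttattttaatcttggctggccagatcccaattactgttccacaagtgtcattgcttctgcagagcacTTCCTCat
F13a1: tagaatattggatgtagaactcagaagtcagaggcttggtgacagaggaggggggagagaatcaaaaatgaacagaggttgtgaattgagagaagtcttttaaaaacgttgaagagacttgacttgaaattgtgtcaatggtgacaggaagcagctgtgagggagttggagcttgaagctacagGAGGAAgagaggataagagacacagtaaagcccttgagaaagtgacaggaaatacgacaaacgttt
Mrc1: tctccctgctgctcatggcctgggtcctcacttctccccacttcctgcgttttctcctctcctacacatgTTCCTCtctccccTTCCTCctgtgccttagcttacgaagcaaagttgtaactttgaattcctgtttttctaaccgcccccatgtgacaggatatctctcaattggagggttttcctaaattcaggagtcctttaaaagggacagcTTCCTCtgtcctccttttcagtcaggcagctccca
Mpeg1: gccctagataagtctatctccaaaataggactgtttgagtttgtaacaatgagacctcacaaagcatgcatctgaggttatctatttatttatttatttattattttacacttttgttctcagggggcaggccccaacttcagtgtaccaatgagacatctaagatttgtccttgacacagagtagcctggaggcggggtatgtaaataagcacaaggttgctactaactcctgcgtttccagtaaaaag
Ctss: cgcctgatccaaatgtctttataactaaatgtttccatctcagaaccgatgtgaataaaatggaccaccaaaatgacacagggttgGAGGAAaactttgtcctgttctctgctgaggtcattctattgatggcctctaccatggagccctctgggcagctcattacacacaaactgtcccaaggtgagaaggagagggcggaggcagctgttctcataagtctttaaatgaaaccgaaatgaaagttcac

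Promoter windows were found for 30 of the 38 genes, 38 windows in all, and GAGGAA was searched on both strands. It was present in 19 of the 38 windows (50.0%), and in 23.3% of all 32851 windows of this length. The longer form GAGGAAGT, which contains the core, was present in 3 windows (7.89%), those of C1qc, Pf4 and Vav1, against 2.44% of all. Of the windows shown, Mrc1 had 3 cores, Pf4, F13a1 and Ctss had 1 each, and Cd163 and Mpeg1 had none (a second window of F13a1, chr13:37049214-37049463, which is not shown, had none either), so genes with and without the core lay on both sides of the common shift. TATAAA was in 4 windows (10.5%), against 12.4% of all. The composite ETS-IRF motif, GGAA and GAAA with any 2 bases between them, was in 1 window (2.63%), that of Folr2, against 2.30% of all. Adgre1, C1qa, Cd14, Csf1r, Csf2rb, Spi1, Tmem119 and Tyrobp were not searched. A match is a run of letters in this window, not a measured site.

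Other genes of the macrophage pathways were taken as lists. Both ligands of Csf1r were higher in the vestibule by about the common shift: Csf1 had 13.9, 17.0 and 16.2 CPM in the cochlea against 57.9, 52.1 and 56.9 CPM (log2 fold change 1.83 ± 0.13, adjusted p = 2.96e-05), and Il34 had 3.76, 2.83 and 2.72 CPM against 8.67, 8.47 and 13.3 CPM (1.71 ± 0.25, adjusted p = 0.00123). Thus the receptor Csf1r and both of its ligands were all higher in the same tissue. Downstream of the ITAM adaptors, 10 of 11 genes that passed the filter were higher in the vestibule, with a median of 1.72. Of the 10, Btk and Clec5a, named after their values were seen, were over 1 CPM in no cochlear library. They so passed only through the vestibule, and the median includes them. Among the 11, the phosphatase Inpp5d (SHIP) changed by 1.72 ± 0.17 and the kinase Lyn by 0.74 ± 0.17 (adjusted p = 0.000129 and 0.0107). The inhibitory receptor Sirpa, which many other cells make, had 0.24 ± 0.13 (adjusted p = 0.217). Complement receptors and leukocyte integrins gave 5 of 6 higher in the vestibule, with a median of 1.58. The anaphylatoxin receptor C3ar1 changed by 1.53 ± 0.23 and Itgam (CD11b) by 1.63 ± 0.22 (adjusted p = 0.00144 and 0.000782), and Itga4 had -0.01 ± 0.22 (adjusted p = 0.969).

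Chemokines and their receptors gave 8 of 10 higher in the vestibule and 1 in the cochlea, with a median of 1.98. Of the 10, 4 were over 1 CPM in no cochlear library and passed only through the vestibule, and the median includes them. The others, some named after their values were seen, had -0.70 (Cxcr4), 0.35 (Cx3cl1), 0.68 (Cxcl12), 0.96 (Ccr1), 2.43 (Ccl12) and 2.68 (Ccl9). The 8 became 3 without vestibule 1, 3 without vestibule 2 and 4 without vestibule 3. The 4 genes no longer pass the filter when a vestibular library is left out, and the fall to 3 is more than they account for. Cx3cl1, the ligand of Cx3cr1, had 31.5, 37.2 and 36.8 CPM in the cochlea and 40.7, 44.3 and 49.5 CPM in the vestibule and was not called (0.35 ± 0.13, adjusted p = 0.0887). Cxcl12 was higher in the vestibule by a log2 of 0.68 ± 0.15, and its receptor Cxcr4 was the gene higher in the cochlea, at -0.70 ± 0.16 (adjusted p = 0.0102 and 0.0117).

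Subsets of macrophages were less uniform. Of further macrophage transcription factors, Runx1 was higher in the cochlea (-0.97 ± 0.26, adjusted p = 0.0235) and Maf higher in the vestibule (0.80 ± 0.15, adjusted p = 0.00429). Both are named for their high counts and are not a summary of that list. Among genes enriched in microglia, 8 passed the filter, of which 4 were higher in the vestibule and 3 in the cochlea, with a median of 0.60, and without cochlea 2 the 4 became 2. The most counted of these, Sparc (0.69 ± 0.20), Olfml3 (-1.19 ± 0.17) and Sall1 (-1.17 ± 0.17), are also made by cells that are not macrophages, and Sparc alone stood at 3920 to 7460 CPM.

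The list of perivascular and fetal-derived macrophages, cells that are known to carry Mrc1 and Cd163, had 7 genes past the filter. Of these, 6 were higher in the vestibule and 1 in the cochlea, with a median of 2.30. Of the 6, Ccl24, named after its values were seen, passed the filter only through the vestibule, and its 3.59 counts in this median. Haem oxygenase Hmox1, which breaks down the haem that Cd163 helps take up, had 15.3, 12.8 and 15.5 CPM in the cochlea and 43.7, 80.5 and 104 CPM in the vestibule (2.38 ± 0.29, adjusted p = 0.000418). Igf1, a growth factor of many cell types, was higher in the cochlea at -1.62 ± 0.16 (adjusted p = 0.000133), and Selenop, which carries selenium, was higher in the vestibule at 0.63 ± 0.20 (adjusted p = 0.0438). Lyve1, a hyaluronan receptor of perivascular macrophages and lymphatic vessels, was named after its values were seen: 3.09, 5.01 and 2.09 CPM against 39.0, 40.2 and 43.0 CPM (3.58 ± 0.29, adjusted p = 4.53e-05). The 6 became 3 without vestibule 2 and 3 without vestibule 3. No gene of the monocyte list passed the filter, and its 7 genes summed to 0.753 to 1.92 CPM in the cochlea and 1.26 to 1.71 CPM in the vestibule.

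**Figure D5:**
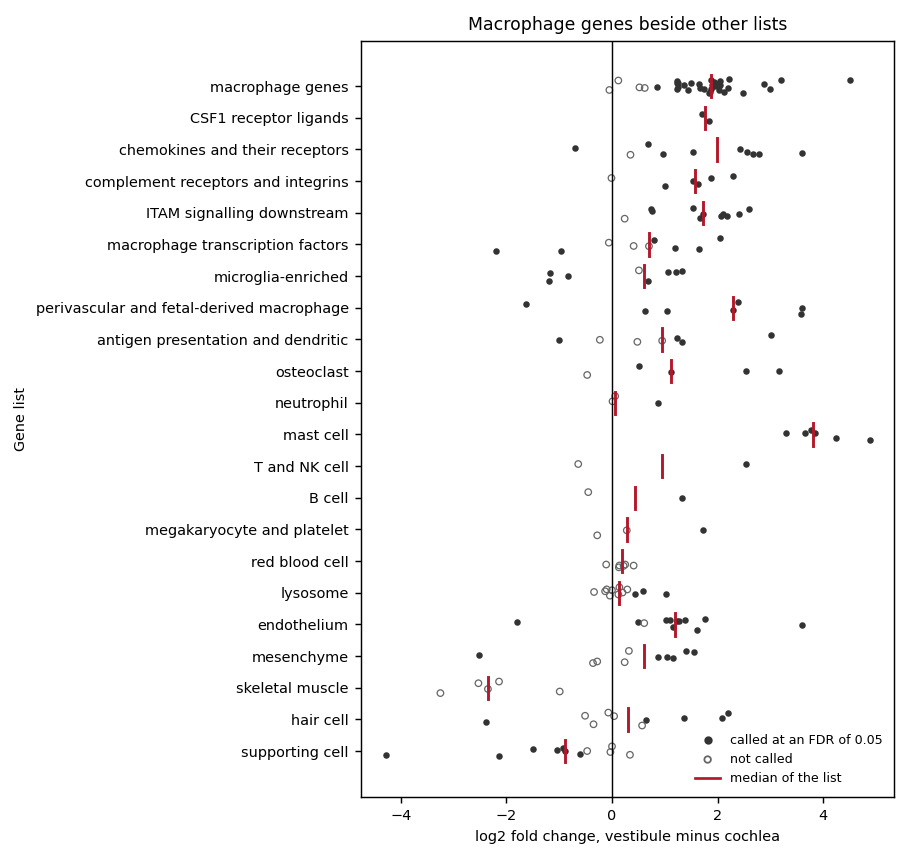
Log2 fold change, vestibule minus cochlea, of the genes of each list that passed the filter, with filled points for genes called at a false discovery rate of 0.05 and red bars for the median of the list. The macrophage genes have a median of 1.87 and the mast cell list of 3.81, while the lysosome, red blood cell and neutrophil lists stand near 0. The medians of some lists include genes that passed the filter only through the vestibule.

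Several genes of the list are also made by other cells, so markers of those cells were summed beside them. Platelets and megakaryocytes hold Pf4 and F13a1: of 7 such markers 3 passed, 1 of them (Itga2b, 1.73 ± 0.22, adjusted p = 0.000586) was higher in the vestibule, and Gp1ba and Gp1bb had 0.28 and -0.28. Their sum was 6.02 to 10.8 CPM in the cochlea and 17.1 to 19.3 CPM in the vestibule. Endothelium can make Stab1 and Mrc1: 10 of 12 endothelial genes were higher in the vestibule and 1 in the cochlea, with a median of 1.19 and sums of 290 to 354 CPM and 544 to 725 CPM. The lead gene Kdr, a receptor of vascular endothelial growth factor, had 20.3, 14 and 18.6 CPM against 242, 197 and 204 CPM (3.60 ± 0.18, adjusted p = 5.56e-06), whereas Emcn (endomucin) was higher in the cochlea (-1.80 ± 0.14, adjusted p = 3.72e-05). Mesenchyme, which can make Dab2 and Tmem119, had 5 of 10 genes higher in the vestibule and 1 in the cochlea, with sums of 5180 to 5990 CPM and 7710 to 8720 CPM. Of its collagens, Col1a2 had 1.05 ± 0.19 and Col3a1 0.24 ± 0.17, and the proteoglycan Lum had -2.51 ± 0.18 (adjusted p = 0.00318, 0.349 and 2.45e-05). Mast cells share the general leukocyte genes, Fcer1g and Csf2rb with macrophages: 6 of 8 mast cell genes passed and all 6 were higher in the vestibule, with a median of 3.81 and sums of 6.10 to 10.4 CPM and 96.8 to 128 CPM, 13.4-fold apart. The proteases Cpa3, Tpsb2 and Cma1 changed by a log2 of 3.76 ± 0.26, 3.65 ± 0.32 and 3.85 ± 0.24 (adjusted p = 1.98e-05, 7.04e-05 and 1.12e-05). Of the 6, 2 passed only through the vestibule and count in the median of 3.81, and 4 were called when any one vestibular library was left out. The part of these cells in the macrophage result was not tested.

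Of the other lists, general lysosome genes bear on Ctss, Laptm5 and Cd68: 3 of 12 were higher in the vestibule, with a median of 0.13, and the 3 became 1 without any one of cochlea 1, vestibule 2 and vestibule 3. Red blood cell genes, which show carried-over blood, gave 0 of 6 called by edgeR in either direction, 0 at an unadjusted p of 0.05 and 0 called higher in the vestibule by DESeq2, but 3 higher in the vestibule without cochlea 1, with sums of 299 to 755 CPM and 482 to 608 CPM. The neutrophil list, which can share Lyz2, Fcgr3 and Fcer1g with macrophages, had 3 of 10 genes past the filter, sums of 3.94 to 7.40 CPM and 5.99 to 8.57 CPM, and the defining gene Ly6g at 0 in all 6 libraries. The muscle gene Tnnc2 was also at 0 in all 6, though cochlea 3 had 570 counts of the muscle gene Tnni2. A 0 in all libraries thus need not mean absence. S100a9 and S100a8 had 0.06 ± 0.36 and 0.01 ± 0.29 (adjusted p = 0.924 and 0.99). Csf3r, the receptor of granulocyte colony-stimulating factor, was called higher in the vestibule (0.88 ± 0.27, adjusted p = 0.0392) but passed the filter only through the vestibule. No gene of this list was called higher in the vestibule by DESeq2, with a replicate block, or without any one library other than cochlea 3. Near copies of listed genes can share reads with them. Lyz1, the close relative of Lyz2, had 1 to 4 counts in a library, against at least 258 for Lyz2. Fcgr2b and Fcgr4 lie near Fcgr3 in sequence: Fcgr2b had 44 to 58 counts in the cochlea and 306 to 334 in the vestibule, and Fcgr4 had 3 to 13 and 9 to 34, against at least 166 and 973 for Fcgr3. Csf2rb2, which resembles Csf2rb, had 16 to 28 counts in the cochlea and 115 to 130 in the vestibule, so that reads of these pairs could have been split by the counting and the values of Csf2rb and Fcgr3 are uncertain to that extent.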

How the data were processed

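RNA of newborn mouse cochlear and vestibular sensory epithelium was sequenced in 3 libraries per tissue with a stranded mRNA kit. Reads were aligned to GRCm38, and the counts of read pairs that htseq-count put on each gene were deposited by the authors as whole numbers without normalization. Per the labels, the submitters' processing notes name TopHat2 2.1.0, SAMtools 0.1.18, HTSeq 0.5.4p5 and edgeR 3.4.2. Summary lines that name no gene (18.5% to 20.6% of listed counts) stayed out of library sizes and tests. The authors also deposited a matrix of log2 RPKM, used here only for levels between genes. Its columns carry library names, which were tied to samples through the count files.

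Tests used edgeR 4.0.16 (R 4.3.3) on genes that reached 1 CPM in 3 libraries (TMM scaling, quasi-likelihood test, Benjamini-Hochberg, FDR 0.05), with all 6 libraries and no covariate. CPM printed are TMM-scaled, SE is the log2 fold change over the square root of F, and fold changes are vestibule minus cochlea. The test against the common shift used the same fit with the members' median in the offsets. The members and all lists were chosen with earlier results of these data known. Every member is named. Genes of other lists were taken from the 3 with the highest mean CPM of a list, or from all where 5 or fewer passed, and not all of these are printed. The result of 1 such gene is not reported here. Alternatives were no TMM, RLE factors, no filter, a filter of 5 CPM, a replicate block, DESeq2 1.42.0, limma-voom (limma 3.58.1), leaving out each library, and other definitions of the shift. Symbols came from a reference table that matched 37607 of 39179 genes, coordinates from GENCODE vM21, and promoters from RefSeq. With 3 libraries a group, single outlying values were not tested. Figures were drawn with matplotlib 3.10.9.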

Additional observations from a re-analysis of the deposited data

How the results depend on the processing

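Of the 34 genes called between the tissues, 32 kept the call in every other setting that tested them, up to 13 in all; P2ry12 lost it with 1 library left out and Ctss with the replicate block (adjusted p = 0.0524 by edgeR's quasi-likelihood test). With library size alone in place of TMM, the median log2 fold change of the macrophage genes was 1.99, the ratio of summed levels 4.21, and Mpeg1 turned to 0.07. That scaling put the median of all genes tested at 0.13 and the calls over all genes at 2754 higher in the vestibule and 1251 in the cochlea, against 2325 and 1711 with TMM. Leaving out each library in turn gave 33 to 34 called genes, a median of 1.81 to 1.92, a ratio of sums of 3.77 to 4.05, 4 to 6 genes above and 6 to 9 below the common shift, and -0.20 to 0.13 for Mpeg1. Whether replicate numbers pair the libraries could not be decided from 3 libraries per tissue. Same-numbered libraries of the tissues deviated with correlations of -0.175, -0.26 and -0.474, while that of cochlea 3 with vestibule 2 was 0.406. With the replicate block, 33 genes were called, 4 lay above and 8 below the shift, and Fcgr3 (0.57) and Coro1a (-0.63) were no longer called against it. With the mean of the genes (1.77) as the shift, 6 lay above and 7 below. At these depths, genes near 1 CPM rest on few counts: Cd14 had 27 to 81 and Folr2 22 to 51 in a cochlear library.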

Other observations

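Other cells of the blood were counted beside the macrophage genes. Osteoclasts, which share the Csf1r pathway, gave 4 of 5 genes higher in the vestibule, with a median log2 fold change of 1.12. Mmp9, a gelatinase, had 2.84, 2.60 and 1.85 CPM in the cochlea and 12.7, 20.2 and 32.8 CPM in the vestibule (3.17 ± 0.36, adjusted p = 0.000315 by edgeR). Acp5, the tartrate-resistant phosphatase, had 2.53 ± 0.47 and Tnfrsf11a (RANK) 1.12 ± 0.23 (adjusted p = 0.0039 and 0.0069). Ctsk (cathepsin K) had 0.52 ± 0.14 and Nfatc1 -0.47 ± 0.17 (adjusted p = 0.0268 and 0.0732). Acp5 was over 1 CPM in no cochlear library and passed the filter only through the vestibule, and it counts in the median. The 4 became 2 without any one vestibular library.

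Antigen presentation and dendritic cell genes gave 3 of 7 higher in the vestibule and 1 in the cochlea. Of the 3, Xcr1, named after its values were seen, passed only through the vestibule, and the 3 became 1 without any one vestibular library. Cd74, the invariant chain, had 1.30, 2.53 and 1.92 CPM in the cochlea and 4.32, 5.47 and 4.68 CPM in the vestibule (1.33 ± 0.28, adjusted p = 0.00719 by edgeR), and H2-Eb1 had 0.48 ± 0.24 (adjusted p = 0.178). Zbtb46, which endothelium also makes, was higher in the cochlea (-1.01 ± 0.18, adjusted p = 0.00286). Lymphocyte genes were near the filter. Of the T and NK cell list, 2 of 10 genes passed, with Lck at -0.64 ± 0.22 and Cd4, which macrophages can also carry, at 2.54 ± 0.27 (adjusted p = 0.0606 and 0.000208). Ncr1 and Nkg7 were at 0 in all 6 libraries, which, as for Ly6g, need not mean absence. Of the B cell list, Blnk had -0.45 ± 0.32 and Cd79b 1.33 ± 0.29 (adjusted p = 0.345 and 0.00859). Cd4 and Cd79b were over 1 CPM in no cochlear library, and with any one vestibular library left out neither list had a gene called.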
